A study of Mus musculus with 2 samples.

Results

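Bcl11a and Bcl11b are a pair of paralogous genes that encode C2H2 zinc-finger transcription factors, and they are described here across the neuronal and immune cells of the mouse vomeronasal organ (VNO). Both genes were given by name and were found by their symbols, as 2 of the 32285 genes in the deposited count matrix. Bcl11a (ENSMUSG00000000861) lies on the plus strand of chromosome 11 from position 24078056 to 24174123, and Bcl11b (ENSMUSG00000048251) on the minus strand of chromosome 12 from 107910403 to 108003602, in the mm10 build. The study profiled whole VNO of wild-type C57BL/6J male mice at P60, without a mutant or a treatment, by droplet-based single cell RNA sequencing of the 3′ ends of transcripts. There were 2 libraries from 5 mice in total, and both belong to 1 group, so every comparison is between classes of cells within the same libraries. The sample records list 5 pooled VNOs for each library beside the 5 mice in total, so both libraries may stem from the same pool. Nothing in the sources used here says how the mice were divided, and the p-values therefore measure only the spread between 2 samples. This spread may be technical in part or in whole.

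Both paralogs bind DNA as repressors or activators and act through partner complexes, the BAF (SWI/SNF) chromatin remodeller and the NuRD deacetylase, and they were also described as partners of the COUP-TF nuclear receptors. Bcl11b is best known for the commitment of thymocytes to the T cell lineage, and Bcl11a for B cell development, plasmacytoid dendritic cells and the silencing of fetal globin. In the VNO, Bcl11b is known from the choice of young vomeronasal sensory neurons (VSNs) between an apical fate, marked by Meis2, Gnai2 and V1R receptors, and a basal fate, marked by Tfap2e, Gnao1 and V2R receptors.

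After filtering, 10592 cells remained (5694 in library 1 and 4898 in library 2), with median depths of 6668 and 6650.5 UMIs, where a UMI is a single counted RNA molecule. Cells were clustered without Bcl11a and Bcl11b among the genes used, so that neither paralog could define a class, and classes were named from markers with the ending "-like". The libraries of most classes differed beyond sampling noise, 33 barcode sequences occurred in both libraries, and 223 of 226 cells of an unnamed Pcp4-led cluster came from library 1. Sox2 lay at 398 and 414 CPM (UMIs of the gene scaled to a total of 1000000 UMIs in the class) in progenitor-like cells in library 1 and 2, Neurod1 at 1723 and 1574 CPM in precursor-like cells, Omp at 818 and 867 CPM in mature apical and at 779 and 732 CPM in mature basal VSN-like cells. Cd3g stood at 1514 and 1660 CPM in T cell-like cells, Cd79a at 2647 and 1850 CPM in B cell-like cells and Flt3 at 62.4 and 66.4 CPM in dendritic-like cells. The B cell-like class also held all 3 plasma cell markers listed, at 31666 and 20763 CPM summed, so it held markers of both B cells and plasma cells. As levels of the 2 genes were counted at 3′ ends, each paralog was compared between classes, and the paralogs with each other only by the share that each held of their summed UMIs.

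Along the neuronal lineage Bcl11a was low in precursor-like and immature apical cells, and Bcl11b was highest in immature neurons. In the 43 progenitor-like cells Bcl11a stood at 38.0 and 39.9 CPM in library 1 and 2 and Bcl11b at 22.8 and 32.7 CPM. The 24 Bcl11b UMIs of this class came from 9 cells, 1 of which held 8 of them. In the 83 precursor-like cells, which express Neurod1, Bcl11a stood at 20.01 and 17.96 CPM and Bcl11b at 72.5 and 102 CPM. The libraries of the 2 classes did not overlap for either gene. Among all 9905 genes tested between these classes, 24.9% passed the threshold of an adjusted p of 0.05, 11.4% higher and 13.5% lower in precursor-like cells. Bcl11b was 3.14-fold higher in precursor-like cells (log2 difference 1.57 ± 0.36, SE, adjusted p = 0.00293, edgeR quasi-likelihood test with Benjamini-Hochberg adjustment, n = 2 libraries). The mean of Bcl11a was 2.05-fold lower, which missed the threshold (log2 difference -1.15 ± 0.45, edgeR adjusted p = 0.0709). The Bcl11b call was lost on cells thinned to 2000 UMIs (adjusted p = 0.479) and under DESeq2 (adjusted p = 0.11), at log2 differences of 1.12 and 1.56. Markers of basal epithelial cells, which carry Bcl11a too, were seen in both classes. In progenitor-like cells 3 of 4 summed to 80.5 and 10.9 CPM, and in precursor-like cells 3 of 4 to 15.01 and 23.9 CPM. The progenitor-like cluster also had 3 markers of sustentacular cells raised over 4-fold against the other lineage cells. The part of such markers in the Bcl11a values was not tested.

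A group of 35 precursor-like cells still in cycle, all 35 with a UMI of the proliferation gene Mki67, already held Bcl11b at 191 and 259 CPM, 8.11-fold above the progenitor-like mean. One of these cells held 25 of the 111 Bcl11b UMIs. Against the other lineage cells the group had 5 progenitor and 4 precursor markers raised over 1.5-fold, so it carried markers of both stages. All 5 fibroblast markers listed were raised over 4-fold in it as well, and their part in the values was not tested. Bcl11a stood at 20.3 and 17.2 CPM there, close to its level in the other precursor-like cells. Beyond the precursors, the clusters at the start of the branches, called here apical-side (65 cells) and basal-side (62 cells), both carried Bcl11b, at 189 and 182 CPM and at 142 and 305 CPM. Neither was led by the marker list of a branch, and the words only describe that Meis2 was seen in every apical-side cell (14 of 14 with Bcl11a and 51 of 51 without) and in 1 of 6 and 11 of 56 basal-side cells, where the basal factor Tfap2e was seen in 2 of 6 and 17 of 56. Bcl11a was at 33.3 and 29.7 CPM on the apical side and at 3.84 and 16.4 CPM on the basal side, where it was seen in 6 cells.

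**Figure D1:**
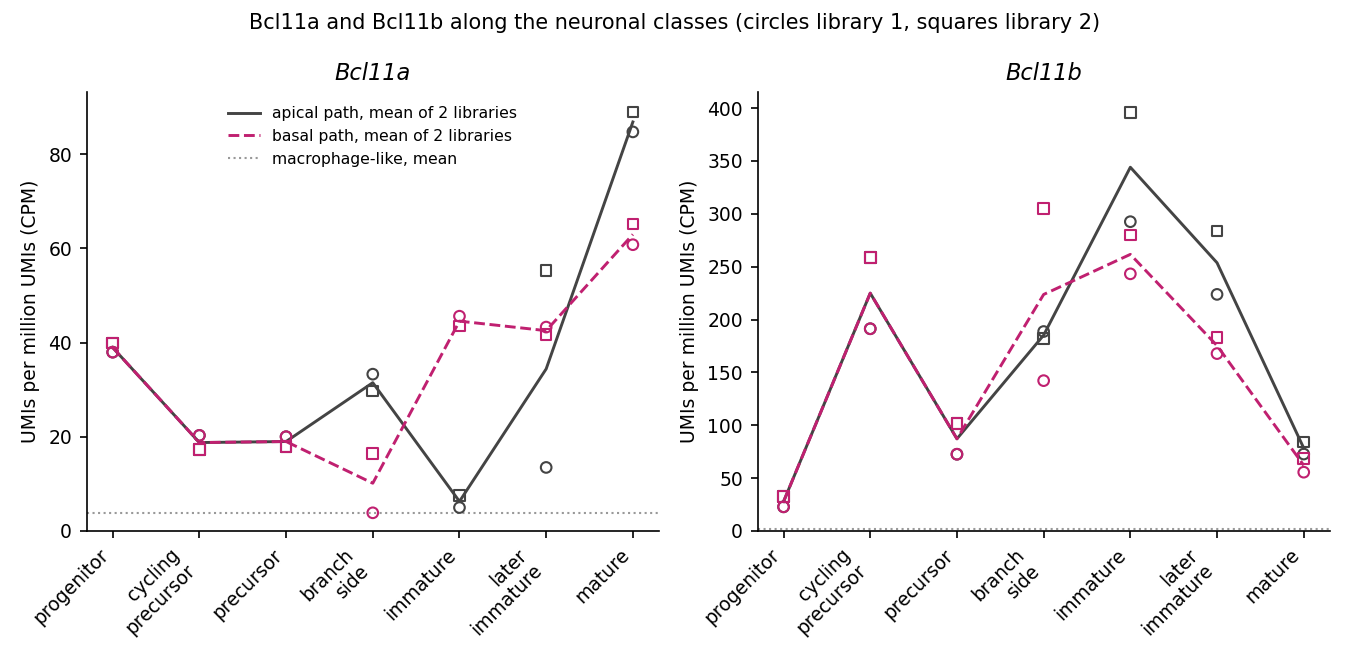
Levels of Bcl11a (left) and Bcl11b (right) in CPM along the neuronal classes, with circles for library 1, squares for library 2 and lines through the means of the 2 libraries for the apical (solid) and basal (dashed) path. Progenitor and precursor classes are shared by both paths, and the dotted line is the macrophage-like mean. Bcl11b peaked at 293 and 396 CPM in the first immature apical cluster, where Bcl11a stood at 4.96 and 7.56 CPM, and Bcl11a was highest in mature apical cells at 84.8 and 89.0 CPM.

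In immature VSNs the branches differed most in Bcl11a. In the first apical cluster (120 cells) Bcl11a had 6 UMIs in all, 4.96 and 7.56 CPM, close to the 2.69 and 4.88 CPM of macrophage-like cells, while Bcl11b was at its highest of all 31 classes, at 293 and 396 CPM. In the first basal-branch cluster (103 cells) Bcl11a stood at 45.6 and 43.5 CPM and Bcl11b at 243 and 280 CPM. The branches thus did not overlap for Bcl11a at this stage, with the basal branch higher. In the later apical cluster (72 cells) the libraries disagreed on Bcl11a, at 13.5 and 55.3 CPM, and in the later basal-branch cluster (54 cells) it lay at 43.3 and 41.8 CPM. Bcl11b stood in the later clusters at 224 and 284 CPM on the apical and at 168 and 183 CPM on the basal path, in each library below the first cluster of the branch.

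With both clusters of a branch summed, Bcl11a stood at 8.20 and 27.7 CPM in the 192 immature apical and at 44.6 and 42.9 CPM in the 157 immature basal VSN-like cells. It was 2.44-fold higher in the basal cells and passed the threshold, which 7.23% of the 10608 genes tested did, 3.8% higher and 3.43% lower in basal cells (log2 difference 1.44 ± 0.41, edgeR adjusted p = 0.0414). The size of this difference rested on the library: it was 2.22 on the log2 scale in library 1 alone and 0.61 in library 2 alone. The call was lost under DESeq2 (1.39, adjusted p = 0.393), on thinned cells (2.33, adjusted p = 0.124) and when cells were gated by marker UMIs (0.47, adjusted p = 0.484). Bcl11b stood at 266 and 348 CPM in immature apical and at 210 and 247 CPM in immature basal cells, and did not pass the threshold (log2 difference -0.38 ± 0.15, edgeR adjusted p = 0.184). With the library number as a block it did pass (-0.37, adjusted p = 0.0243), and with gated cells its sign turned (0.61, adjusted p = 0.0717).

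In mature neurons, which express Omp, the branches lay close together. Bcl11a stood at 84.8 and 89.0 CPM in the 594 mature apical and at 60.8 and 65.2 CPM in the 109 mature basal VSN-like cells, and Bcl11b at 72.7 and 84.0 CPM and at 55.6 and 68.5 CPM. For both genes each apical library lay above each basal one. Neither gene passed the threshold, while 9.81% of 12690 genes did (5.74% higher and 4.07% lower in basal cells): the log2 difference of basal minus apical was -0.38 ± 0.14 for Bcl11a (edgeR adjusted p = 0.140) and -0.25 ± 0.16 for Bcl11b (edgeR adjusted p = 0.389). Markers of sustentacular cells were somewhat higher in the basal class, 4 of 4 at 54.5 and 74.2 CPM summed against 3 of 4 at 11.8 and 21.4 CPM in the apical class, and their part in these values was not tested.

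Maturation moved the paralogs in opposite directions on the apical branch. From immature to mature apical cells Bcl11a rose 4.84-fold (log2 difference 2.43 ± 0.32, edgeR adjusted p = 0.000112) and Bcl11b fell 3.92-fold (-1.91 ± 0.14, edgeR adjusted p = 1.06e-06), where 38.6% of 12775 genes passed (21.4% higher and 17.2% lower in mature cells). The Bcl11a rise was 3.28 on the log2 scale in library 1 alone and 1.70 in library 2 alone. On the basal branch Bcl11b fell 3.68-fold (-1.85 ± 0.19, edgeR adjusted p = 8.83e-06) with 35.7% of 10860 genes past the threshold (19% higher and 16.6% lower). Basal Bcl11a went from 44.6 and 42.9 to 60.8 and 65.2 CPM, which missed it (0.54 ± 0.25, edgeR adjusted p = 0.105).

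The difference between the 2 falls of Bcl11b, basal minus apical, was 0.10 ± 0.23 on the log2 scale (edgeR adjusted p = 0.927). For Bcl11a the basal change was smaller than the apical one by 1.85 ± 0.45 on the log2 scale, which fell short of the threshold in this fit (edgeR adjusted p = 0.0715), where 1.39% of 13400 genes passed (0.687% with the larger and 0.701% with the smaller change in basal cells). The difference in Bcl11a did pass under 6 of the other settings tried, among them the library as a block (-1.88, adjusted p = 0.00062). The 2 libraries gave -2.80 and -1.05 for it, with library 1 the larger.

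The share of each paralog in the pair's molecules also differed between classes. Bcl11b held 40.0% of the summed Bcl11a and Bcl11b UMIs in progenitor-like cells (exact 95% interval 27.6 to 53.5%, 37.5 and 45% in the libraries). It held 91.7% in cycling precursor-like, 81.8% in precursor-like and 98.2% in the first immature apical cells, against 85.3% in the first basal-branch cells. In the mature classes the shares came down to 47.2% on the apical side (46.2 and 48.6%) and 49.6% on the basal side (47.7 and 51.3%), so that mature VSNs of both kinds carried the paralogs in nearly equal UMI numbers.

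The share of cells in which a gene is seen depends on depth, and free RNA, which was not estimated, can give a class a low share. Shares are therefore set here beside those of macrophage-like (median depth 4510.5 UMIs) and endothelial-like cells (median depth 5445 UMIs), in which neither paralog is characteristic. At least 1 UMI of Bcl11a was seen in 1.48% of macrophage-like and 1.66% of endothelial-like cells, and of Bcl11b in 0.891% and 1.79%. Of the macrophage-like cells, 493 belonged to a cluster with a median depth of 840 UMIs, which can lower the shares of that class. The classes summed over a branch were above these shares for both paralogs, whereas in the first immature apical cluster the 4.17% of cells with Bcl11a (exact 95% interval 1.37 to 9.46%) could not be told from them. Bcl11a was seen in 53.5% of progenitor-like cells (exact 95% interval 37.7 to 68.8%), 14.5% of precursor-like, 9.38% of immature apical, 24.8% of immature basal, 66.7% of mature apical (62.7 to 70.5%) and 65.1% of mature basal cells. Bcl11b was seen in 20.9%, 32.5%, 82.3%, 79.6%, 58.8% and 59.6% of the same classes. Intervals on shares and counts cover counting error only.

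Depth differed between these classes, with medians of 18153 UMIs in progenitor-like, 8887 in precursor-like and 13507.5 in mature apical cells, so each cell was also thinned to 2000 UMIs. Thinned, Bcl11a remained visible in 9.30% of progenitor-like, 2.50% of precursor-like, 1.57% of immature apical, 7.69% of immature basal, 15.7% of mature apical and 17.4% of mature basal cells, against 0.579% of macrophage-like cells. Thinned Bcl11b shares were 4.65%, 10.0%, 44.5%, 35.3%, 14.5% and 11.01%, against 0.331%. Among these classes, Bcl11b was highest in immature apical neurons in both readings, and Bcl11a in mature neurons, with the basal and apical ones in the opposite order once thinned.

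**Figure D2:**
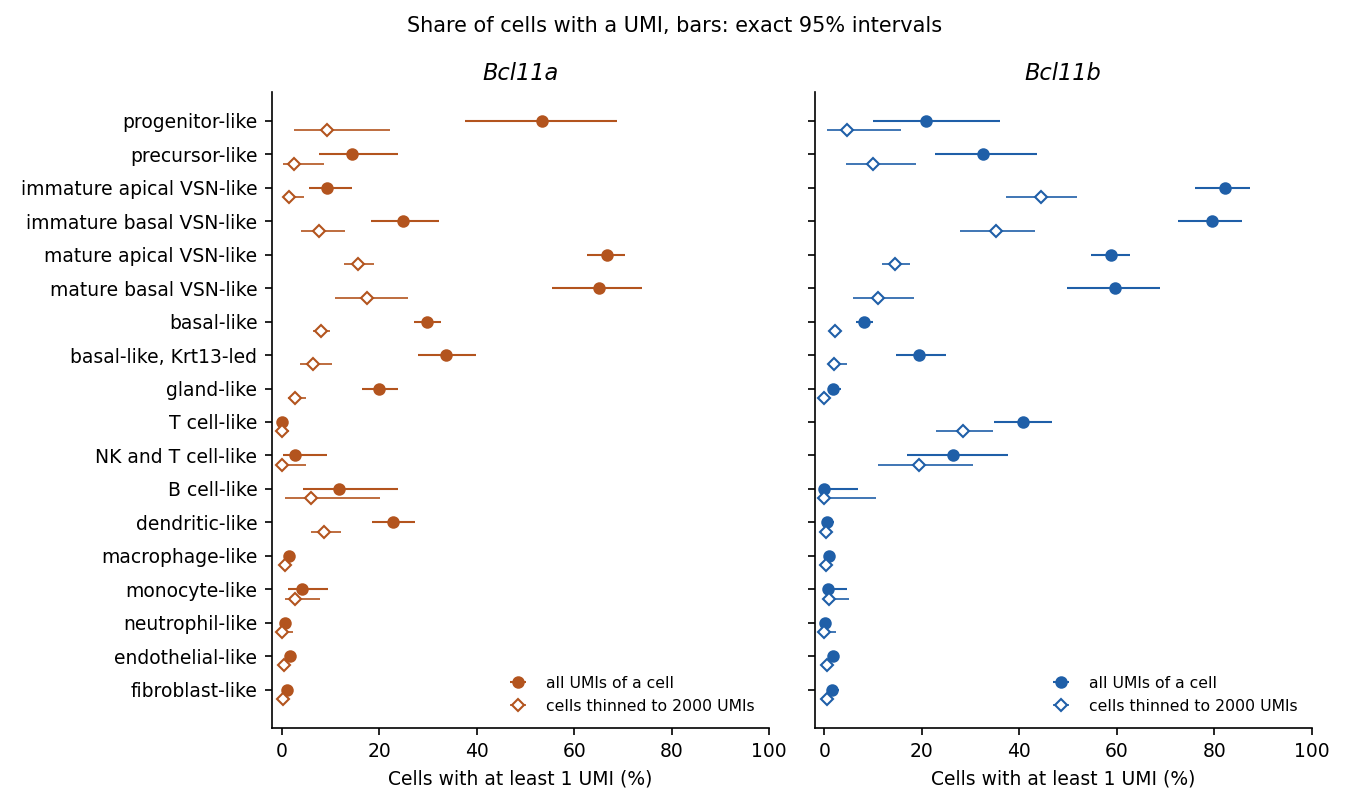
Share of cells (%) with at least 1 UMI of Bcl11a (left) and Bcl11b (right) in each class, with all UMIs (filled circles) and after thinning to 2000 UMIs per cell (open diamonds); bars are exact 95% intervals over the cells of both libraries. T cell-like cells held Bcl11b in 40.7% and Bcl11a in none, and dendritic-like cells held Bcl11a in 22.7% and Bcl11b in 0.548%.

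Both paralogs were seen together in 635 of the 10592 cells (6.00%), while 1236 cells held only Bcl11a and 896 only Bcl11b. Of the 635 cells, 247 (38.9%) were mature apical VSN-like, 45 mature basal VSN-like, and 158 (24.9%) belonged to an unnamed cluster with a median depth of 27533.5 UMIs. The leading genes of that cluster were vomeronasal receptor genes and Meg3, and 3 mature basal VSN and 2 sustentacular markers were raised over 4-fold in it. None of these 158 cells and 2 of the 247 were called doublets, which are 2 cells under a single barcode. The calls took 1.19 and 2.12% of all cells in the libraries, below the expected rate of 8% that was set. The part of uncalled doublets in the counts was not tested. The number of double-positive cells was set beside the product of the 2 shares within each class and library, as a description and not a test. In mature apical cells 247 cells were seen against 233 by the product (41.6 and 39.1% of 594), in mature basal cells 45 against 42.4 (41.3 and 38.9% of 109). Of the mature VSNs with Bcl11b, 247 of 349 apical and 45 of 65 basal cells thus also held a Bcl11a UMI. In thinned mature apical cells the count was 23 against 13.5, and it lay above the product in both libraries (11 against 6.96 and 12 against 6.52).

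In immature neurons the double-positive cells followed the product closely, with 16 cells against 14.9 in the apical and 31 against 31.02 in the basal class. Progenitor-like cells held 7 against 4.93, of 43. The cycling precursor-like class held 2 double-positive cells of 35 against 5.72 by the product, 1 against 4.08 in library 1 and 1 against 1.64 in library 2. The product lay within the exact interval of the share, but that interval does not hold the single shares fixed and cannot show independence. Of the 10 cells of this class with Bcl11a, 2 held Bcl11b, compared with 18 of the 25 without it. In the other precursor-like cells 3 were seen against 3.88, of 83, and no difference between these classes was tested.

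**Figure D3:**
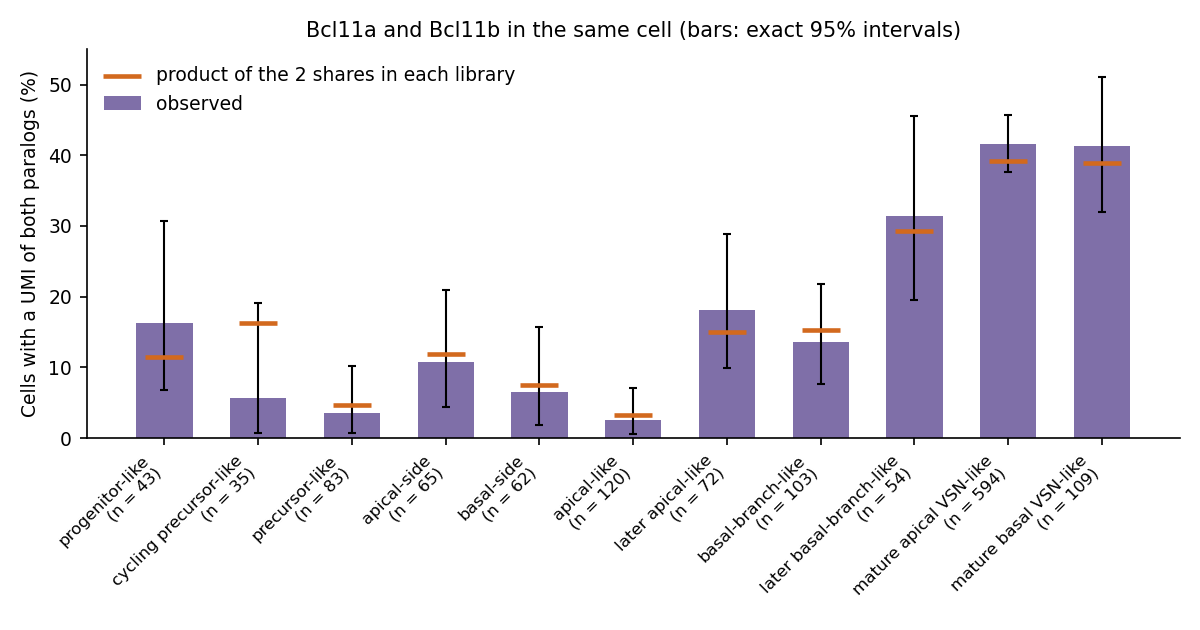
Share of cells (%) with a UMI of both paralogs in each neuronal class (bars, with exact 95% intervals over the cells of both libraries) beside the product of the 2 single shares within each library (horizontal marks). Observed shares ran from 2.50% in the first immature apical cluster to 41.6% in mature apical cells. The product lay within the interval in all 11 classes drawn. The intervals do not hold the 2 single shares fixed, so this cannot show that the detections were independent.

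Cells that held one paralog were also described by the genes that the study names for the split of the branches, which were chosen by the study on these same cells and are no independent evidence. Notch1 is the receptor and Dll4 a ligand of the Notch pathway, and Hey1, Hes5 and Nrarp are targets of Notch signalling. The study found these genes by comparing cells with and without Bcl11b at the split. Their differences by Bcl11b below were therefore set by the choice, and their widths cannot rank the paralogs. In the cycling precursor-like class, Hey1 was seen in 3 of 10 cells with Bcl11a (30%) and 15 of 25 without (60%), and Dll4 in 4 of 10 (40%) and 3 of 25 (12%). With Bcl11b the pattern was the reverse: Hey1 was seen in 16 of 20 cells with it (80%) and 2 of 15 without (13.3%), and Dll4 in 0 of 20 (up to 15% by the limit of 3 counts) and 7 of 15 (46.7%). Median depths were 16410 and 14711 UMIs for cells with and without Bcl11a, and 14641 and 15380 UMIs for Bcl11b. Notch1 did not separate the cells by Bcl11a, with 6 of 10 against 14 of 25.

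In the other precursor-like cells the apical factor Meis2 differed most among these genes. Meis2 was seen in 11 of 12 cells with Bcl11a (91.7%, exact 95% interval 61.5 to 99.8%) against 30 of 71 without (42.3%, 30.6 to 54.6%), at median depths of 9610 and 8736 UMIs. For Bcl11b the direction was the opposite, with Meis2 in 3 of 27 cells with it (11.1%, 2.35 to 29.2%) and 38 of 56 without (67.9%, 54.0 to 79.7%). Both directions were the same in each library. The exact intervals cover counting error over cells, which are not replicates, and no test over cells was made. In progenitor-like cells Mki67 was seen in 19 of 23 cells with Bcl11a and 9 of 20 without, but the depths also differed, at medians of 22170 and 14624 UMIs, and the part of depth was not tested.

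**Figure D4:**
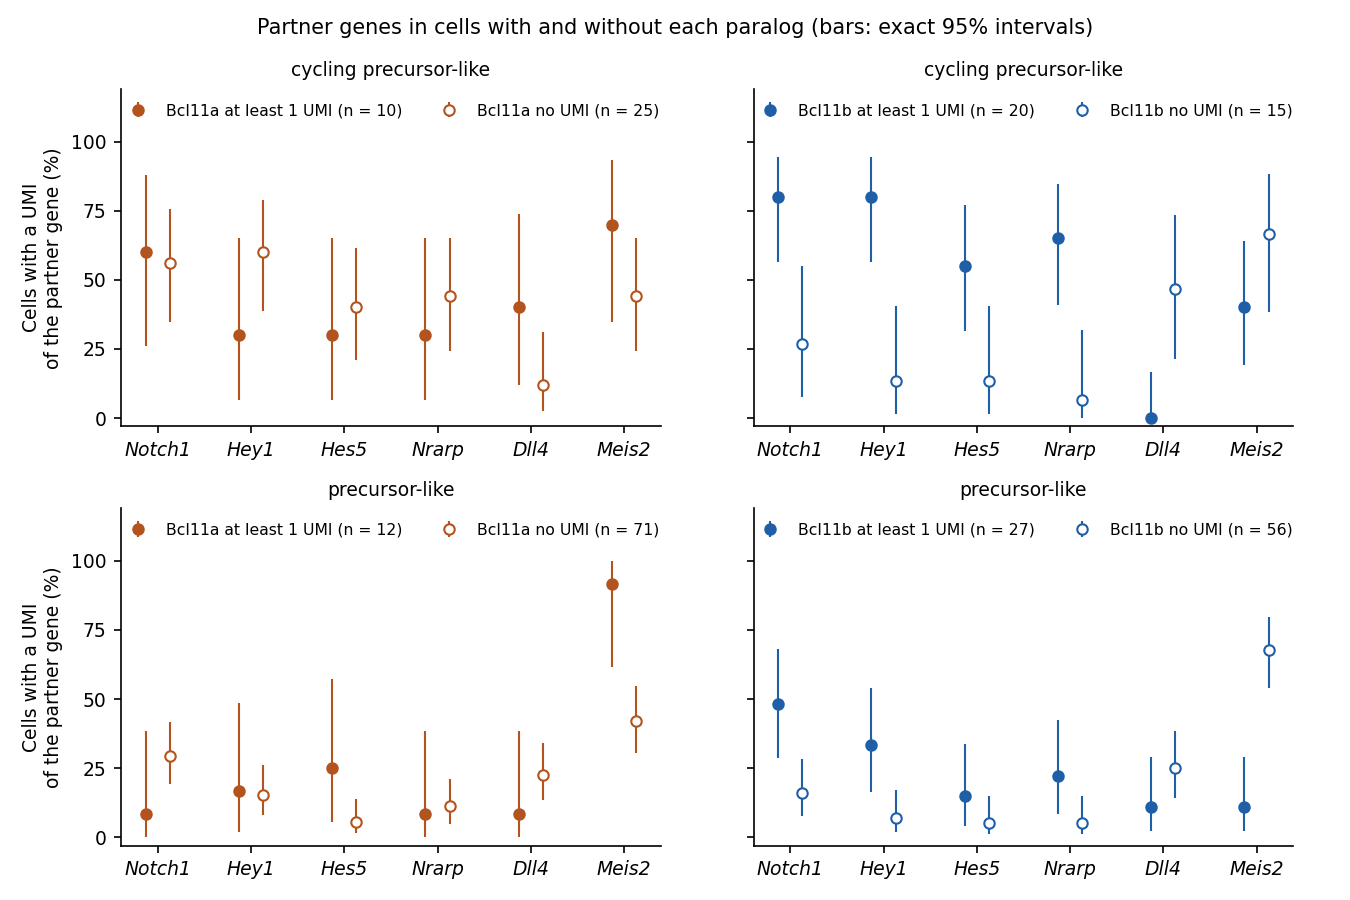
Share of cells (%) with a UMI of Notch1, Hey1, Hes5, Nrarp, Dll4 or Meis2 among cells with (filled) and without (open) a UMI of Bcl11a (left, orange) or Bcl11b (right, blue), in cycling precursor-like (top) and precursor-like cells (bottom); bars are exact 95% intervals over cells of both libraries. Meis2 was seen in 91.7% of precursor-like cells with Bcl11a and in 11.1% of those with Bcl11b.

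Among the immune cells the paralogs divided by class. In the 275 T cell-like cells Bcl11b stood at 196 and 163 CPM and was seen in 112 cells (40.7%, exact 95% interval 34.9 to 46.8%) at a median depth of 2992 UMIs. No Bcl11a UMI was found in these cells, so that the limit set by 3 counts is a share of 1.09%. The separate class of NK and T cell-like cells held 2 Bcl11a beside 33 Bcl11b UMIs. Under a mitochondrial limit of 10%, where the cells were clustered anew, the T cell-like class held 5 Bcl11a beside 265 Bcl11b UMIs. In the 51 B cell-like cells no Bcl11b UMI was found (limit 5.88%), and Bcl11a had 7 UMIs in 6 cells, at 45.6 and 13.2 CPM. Bcl11b was at least 12.6-fold higher in T cell-like cells, against a floor of 3 UMIs over both libraries of the B cell-like class, and passed the threshold, as 11.2% of 7290 genes did, 6.47% higher and 4.69% lower in T cell-like cells (edgeR adjusted p = 1.08e-09). Of the 7 Bcl11a UMIs 6 came from library 1 and 1 from library 2, so no fold is given. With 7 UMIs in all Bcl11a missed the minimum of 10 UMIs for the test, and without that filter it passed (edgeR adjusted p = 0.00117). None of the 5 T cell markers had a UMI in the B cell-like class, while 4 of 5 macrophage markers summed to 1034 and 2049 CPM there. The median of all genes was shifted by 0.26 on the log2 scale toward T cell-like cells.

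Most of the T cell-like class carried transcripts of the gamma-delta T cell receptor: 11 cells had a UMI of Cd8a or Cd8b1, 5 of the others had one of Cd4, and 186 of those left had one of Trdc or Tcrg-C1. Bcl11b stood at 191 and 163 CPM in the Trdc or Tcrg-C1 group, and at 244 and 162 CPM in the 73 cells with none of the 3 marks. The class of NK and T cell-like cells (76 cells) held less, at 81.4 and 124 CPM. When the T cell-like and the NK and T cell-like classes were clustered together, 4 subclusters each held Bcl11b between 140 and 226 CPM in the libraries. They were led by Cd163l1 and Trdv4, by Cd8b1, by Ccl1, and by Lgals3 and Ccr6. The Ccl1-led one (44 cells) also had Il13 and Il1rl1 among its leading genes. As Il1rl1 was listed here as a marker of NK and innate lymphoid cells, these 44 cells may not be T cells, which was not tested. The subcluster of 43 cells led by the NK genes Gzma and Ncr1 stood apart at 27.9 and 14.1 CPM, below every library of the other subclusters. Of the 8 B cell-like cells with a UMI of Jchain, a plasma cell gene, none held Bcl11a.

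In the 365 dendritic-like cells Bcl11a stood at 40.3 and 43.4 CPM and was seen in 83 cells (22.7%, 18.5 to 27.4%), and in thinned cells in 8.66%. Macrophage-like cells, the myeloid class compared here, stood at 2.69 and 4.88 CPM, close to the 4.18 and 2.03 CPM of endothelial-like cells. The 11.1-fold difference passed the threshold, as 26.4% of 12294 genes did, 13.6% higher and 12.9% lower (log2 difference 3.51 ± 0.30, edgeR adjusted p = 2.06e-10). Neutrophil-like cells, at 4.65 and 3.38 CPM, lay within the range of the macrophage-like libraries, and both monocyte-like libraries, at 8.17 and 10.3 CPM, lay above it. Bcl11b had 2 UMIs in dendritic-like cells, at 0.650 and 0.819 CPM, and did not pass (log2 difference -1.36 ± 1.02, edgeR adjusted p = 0.372). Under a mitochondrial limit of 10% the dendritic-like class held 10 Bcl11b beside 139 Bcl11a UMIs.

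Within the dendritic-like class the 34 cells with a UMI of Siglech, a plasmacytoid marker, held most Bcl11a, at 80.5 and 117.8 CPM, and 38.2% of them had a UMI. Each other cell was put in the first group it had a UMI for, in the order Xcr1 or Clec9a, Ccr7 and Cd209a. The 184 cells grouped by Cd209a, a marker of monocyte-derived and conventional type 2 cells, stood at 31.2 and 42.8 CPM, and the 49 with Xcr1 or Clec9a, of conventional type 1 cells, at 44.9 and 16.5 CPM. The 39 cells with Ccr7, a marker of migratory cells, stood at 5.98 and 41.3 CPM. These last 2 groups rest on few molecules, with 12 and 3 Bcl11a UMIs for Xcr1 or Clec9a and 1 and 5 for Ccr7. Cells other than the Siglech group thus still held Bcl11a in both libraries, and the difference from macrophage-like cells was 3.30 on the log2 scale without the Siglech cells. A subcluster of 27 cells led by the epithelial genes Krt17 and Sfn held 83.5 and 25.8 CPM of Bcl11a at a median depth of 13173 UMIs. All 4 basal epithelial markers were present in the dendritic-like class, at 218 and 257 CPM summed, and basal-like epithelial cells held Bcl11a at 38.8 and 50.3 CPM themselves. Without this subcluster the difference was again 3.51 on the log2 scale.

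**Figure D5:**
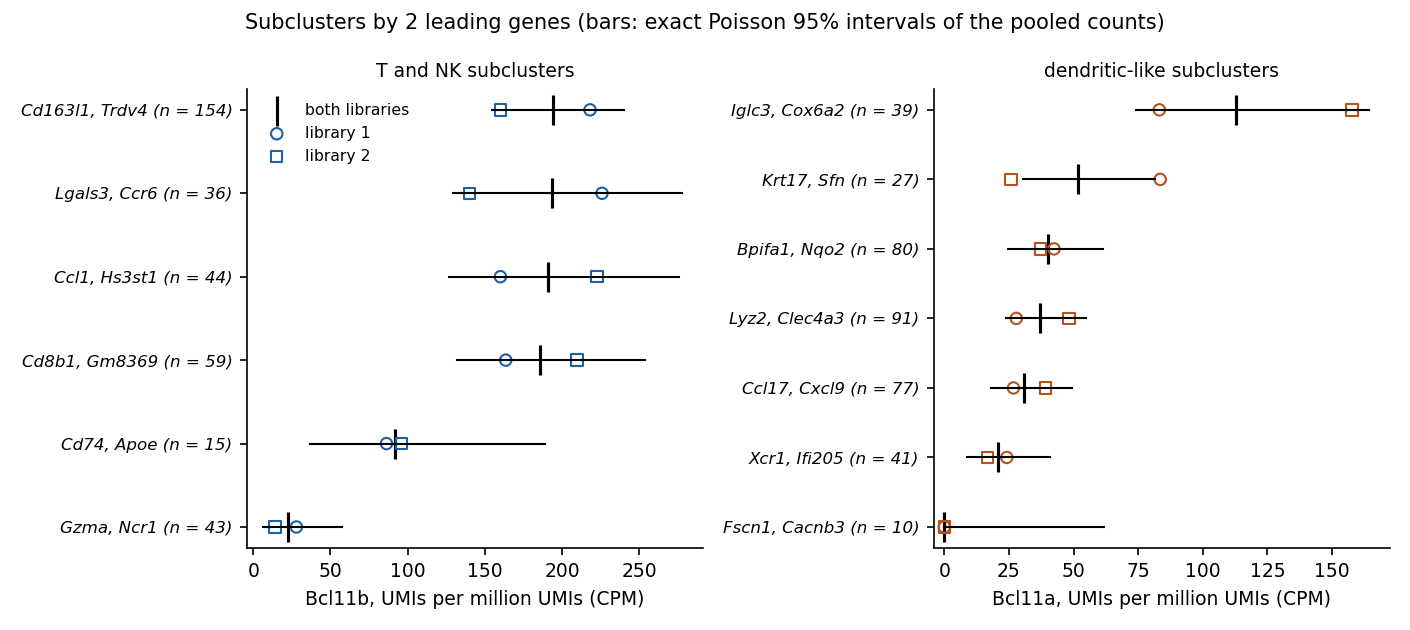
Bcl11b in subclusters of the T cell-like and NK and T cell-like classes (left) and Bcl11a in subclusters of dendritic-like cells (right), in CPM, with each subcluster named by its 2 leading genes. Circles are library 1, squares library 2, vertical marks both libraries pooled and bars exact Poisson 95% intervals of the pooled counts, and the Gzma- and Ncr1-led cells held least Bcl11b, at 27.9 and 14.1 CPM.

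The partner complexes of the paralogs were described last. The lists of 28 BAF and 15 NuRD subunits and the 3 COUP-TF genes were compared in the same fits, and some of their genes may have served in the clustering, so their counts describe the classes. From progenitor-like to precursor-like cells, 5 of 24 BAF subunits tested rose and 1 fell, at a median log2 difference of 0.43 beside -0.0067 for all genes. With 24.9% of all genes past the threshold (11.4% higher and 13.5% lower), the number of BAF subunits called was near the share of all genes. Smarcd2 rose by 2.62 ± 0.22, Bcl7a by 1.86 ± 0.23 and Actl6b, the neuronal actin-like subunit, by 2.55 ± 0.72 on the log2 scale. Of 14 NuRD subunits 3 rose and 4 fell, beside the same 24.9% of all genes, with the remodeller Chd4 up by 1.46 ± 0.24 and the histone-binding Rbbp7 down (-1.56 ± 0.26), and the COUP-TF gene Nr2f6 fell. Under DESeq2 2 of these BAF and 3 of the NuRD subunits passed.

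Between the immature branches 1 BAF subunit of 25 was higher in basal cells and 1 lower, and the same counts held for 15 NuRD subunits, both near the 7.23% of all genes that passed (3.8% higher and 3.43% lower). Bcl7a was higher in the basal cells (log2 difference 1.15 ± 0.16), as was the neuronal remodeller Chd5 (28.9 and 34.0 CPM against 1.02 and 2.92 CPM). With maturation 10 of 27 BAF subunits fell and 0 rose on the apical branch, where 38.6% of all genes passed (21.4% higher and 17.2% lower), and 9 of 26 fell and 1 rose on the basal branch, where 35.7% did (19% higher and 16.6% lower). The numbers called were thus near the shares of all genes, with more of the called subunits lower than higher. The NuRD counts were 7 fallen and 3 risen of 14 on the apical and 6 fallen and 2 risen of 15 on the basal branch, with the deacetylase Hdac2 down by 2.48 and 1.50 on the log2 scale. Median log2 differences of the BAF list were -0.52 and -0.49, beside 0.10 and -0.0040 for all genes. Between mature basal and apical cells 1 of 28 BAF subunits passed (Smarcb1, higher in basal cells) and 0 of 14 NuRD subunits, of which 1 had an unadjusted p under 0.05 in edgeR, beside 9.81% of all genes. Under DESeq2 0 BAF subunits, Smarcb1 included, and 0 NuRD subunits passed. For the difference between the branches in the change with maturation, 0 of 28 BAF and 0 of 15 NuRD subunits passed in edgeR, beside 1.39% of all genes. Of these subunits 6 and 2 had an unadjusted p under 0.05, and 0 passed under DESeq2. The COUP-TF genes had 1 member past the threshold in each maturation comparison, Nr2f6, which was higher in mature cells, and whose call on the apical branch was lost under DESeq2.

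In T cell-like against B cell-like cells, 0 of 23 BAF subunits passed in edgeR (1 at an unadjusted p under 0.05) and 2 of 14 NuRD subunits, Mbd2 and Chd3, were higher, beside 11.2% of all genes. On counts simulated for this comparison the fit found 2% of genes changed by a log2 difference of 1 and 44% of those changed by 2. The count of 0 therefore does not show equal levels. The median log2 difference of the BAF list was 0.52, beside 0.26 for all genes. In dendritic-like against macrophage-like cells 1 BAF subunit of 24 was higher and 1 lower, 3 of 14 NuRD subunits were higher and 1 lower, and the COUP-TF gene Nr2f2 was higher, beside 26.4% of all genes (13.6% higher and 12.9% lower). Under DESeq2 none of the BAF, NuRD and COUP-TF genes passed in either immune comparison. Of 20 lymphoid factors 18 were tested in T cell-like against B cell-like cells, and 5 were higher and 4 lower, beside 6.47% and 4.69% of all genes. Gata3, a factor of T cell commitment, stood at 134 and 174 CPM against no UMI in B cell-like cells, and the B cell factor Ebf1 at 16 and 24.4 CPM against 692 and 912 CPM. Of 13 dendritic factors 6 were higher and 2 lower in dendritic-like than in macrophage-like cells, beside 13.6% and 12.9% of all genes. Among them Flt3, a cytokine receptor of dendritic cells, stood at 62.4 and 66.4 CPM against 4.57 and 5.42 CPM, and the plasmacytoid factor Spib at 12.3 and 13.1 CPM against 0 and 0.542 CPM. Flt3 and other members of the dendritic list, and Ebf1 of the lymphoid list, were also markers used to name the classes. The counts and values of these 2 lists therefore describe the classes and are no independent evidence.

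The levels of the paralogs over the 23 named classes had a Pearson correlation of 0.25 on their log2(CPM + 1) values. Among 14011 genes, those most like Bcl11b were Crmp1 (0.91), Gm49602 (0.89), B4galnt4 (0.88), Mkrn2 (0.88) and Slain1 (0.87), and those most like Bcl11a were Ildr1 (0.78), Stx3 (0.75), Rab25 (0.74), Epcam (0.73) and Fam187b (0.73). The classes share 2 libraries and differ in depth, so these values are given as a description. Ordered by their means over all 31 classes, the libraries of neighbouring classes did not overlap in 7 of 30 pairs for Bcl11b and 5 of 30 for Bcl11a. The first immature apical cluster was thus set apart from the next class for Bcl11b, and mature apical cells from the next for Bcl11a, whereas each neighbouring pair among the next 7 classes for Bcl11b (basal-branch-like, later apical-like, cycling precursor-like, basal-side, apical-side, T cell-like and later basal-branch-like cells, at means of 262 to 175 CPM) overlapped in its libraries.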

How the data were processed

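The deposited files hold raw counts of UMIs per gene and barcode, made by the authors with Cell Ranger 4 and the mm10 reference and joined over the 2 libraries by its aggr step; how aggr treated depth was not found in the paper, labels or headers. They held 24084 barcodes with 108005626 and 95442231 UMIs. Kept were genes seen in 3 or more cells, and cells that had 200 to 9000 genes and no more than 5% of UMIs from mitochondrial genes. Seurat 5.3.0 in R 4.3.3 clustered these cells (2000 variable genes without the paralogs, 30 principal components, resolution 0.8), and lineage cells again with 15 components at resolution 1. Scrublet called 68 and 104 cells doublets, which stayed in the values reported and were left out in an alternative.

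UMIs were summed per library and class. Genes reaching 10 UMIs over the compared sums were tested with edgeR 4.0.16 (TMM, quasi-likelihood, two-sided, Benjamini-Hochberg over all genes, threshold 0.05) without a block. Thinning to 2000 UMIs per cell left out 2327 cells. Shares have exact Clopper-Pearson and pooled levels exact Poisson intervals at 95%. Tested on counts simulated for immature basal against apical cells, the fit found 16% of the genes changed by a log2 difference of 1 and 86% of those changed by 2. Sums numbered alike stem from 1 library, hence from the same animals, and pair the classes; their deviations from the class means correlated at 0.0167 to 0.113 over the comparisons. Gene positions came from the GENCODE annotation of mm10. An antisense gene inside Bcl11a, 4930538E20Rik, had 3 UMIs over all named classes.

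The paralogs, the gene lists (BAF, NuRD, COUP-TF, lymphoid and dendritic factors), the markers and the tests were chosen with earlier results of these data known. The values of 1 progenitor marker are not reported here. Named genes were the paralogs, members of a list among the 4 with the smallest adjusted p in a comparison, the 5 genes most alike to each paralog, and genes the study names for the branch split. Alternatives were DESeq2 1.42.0, RLE factors, no filter, the library block, 1 fit over all classes, each library alone, a 10% mitochondrial limit, no doublets, thinning, a lower resolution, the paralogs kept in the clustering, at least 2 UMIs for a positive cell, and marker gates; 8 more were added after seeing the data.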

Additional observations from a re-analysis of the deposited data

How the results depend on the processing

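Bcl11b lower in mature than in immature VSNs, Bcl11a higher in mature apical and in dendritic-like cells and Bcl11b higher in T cell-like cells kept their direction and side of the threshold in every alternative run. The branch difference of Bcl11a was lost under DESeq2 (1.39), thinning (2.33) and gates (0.47), and the precursor rise of Bcl11b under DESeq2 (1.56) and thinning (1.12), all log2 differences; the cause was not tested. The precursor fall of Bcl11a passed at a 10% mitochondrial limit (-1.46). The difference between branches in the Bcl11a change with maturation passed under DESeq2 (-1.82), no filter (-1.88), 1 fit over all classes (-1.94), a 10% limit (-1.83) and with the first immature clusters alone (-3.33, chosen after seeing the data). Signs turned for immature Bcl11b with gates (0.61), dendritic-like Bcl11b at a 10% limit (0.45) and the Bcl11b difference in change with maturation when thinned (-0.16) or gated (-0.77), and when 1 library was left out it ranged from -0.069 to 0.20.

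With the library number as a block, pairing the classes of a library, immature Bcl11b passed (-0.37) and so did the Bcl11a difference in change with maturation (-1.88); no other call on a paralog changed.

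Counts of genes past the threshold moved by over 1.5 times as follows. Immature basal against apical (767) gave 289 with DESeq2, 1301 with the block, 328 thinned and 1416 gated. Mature basal against apical (1245) gave 2177 without the filter, 2500 with the block and 178 thinned. Precursor-like against progenitor-like (2468) gave 894 with DESeq2, 602 thinned and 501 gated. Maturation gave 2284 thinned on the apical branch (4932), and 1851 with DESeq2, 924 thinned and 2378 gated on the basal branch (3874). T cell-like against B cell-like (814) gave 358, 338 and 197 under the same 3 settings, and dendritic-like against macrophage-like (3249) 1821, 1876 and 1266. The difference in maturation (186) gave 515 without the filter, 629 with the block, 28 thinned and 80 gated.

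Shares of cells fell with thinning and with a limit of 2 UMIs, as both remove detections by construction, and co-detection fell with them. Some low levels rest on few molecules: Bcl11a had 6 UMIs in the basal-side and in the first immature apical cluster, and 7 in B cell-like cells.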

Other observations

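Outside neurons and immune cells, Bcl11a was seen throughout the epithelium. In basal-like cells, which express the keratins Krt5 and Krt14 (1052 cells), it stood at 38.8 and 50.3 CPM in the libraries and was seen in 29.8% of cells, and in a second basal-like cluster led by Krt13 and other keratins of stratified epithelium (252 cells) at 37.8 and 40.6 CPM. An unnamed cluster led by Serpina1e and Krt19 (785 cells) held 30.4 and 36.5 CPM, and gland-like cells (473 cells) 12.5 and 12.6 CPM. All of these lie above the macrophage-like libraries at 2.69 and 4.88 CPM. In thinned cells the shares were 8.05% in basal-like, 6.43% in Krt13-led, 6.68% in Serpina1e-led and 2.75% in gland-like cells, against 0.579% in macrophage-like cells.

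Bcl11b was lower and more uneven there. It stood at 11.5 and 12.9 CPM in basal-like and at 23.3 and 25.5 CPM in the Krt13-led cells, whose libraries did not overlap, and at 0.702 and 0.852 CPM in gland-like cells. Of the UMIs of both paralogs Bcl11b held 38.3% in the Krt13-led (exact 95% interval 31.3 to 45.7%), 21.6% in basal-like (18.1 to 25.6%), 11.8% in Serpina1e-led (8.54 to 15.8%) and 5.80% in gland-like cells (2.54 to 11.1%). For the Serpina1e-led cluster the share was 22.4% under a mitochondrial limit of 10%, where the cells were clustered anew. Depth also differed between these classes, with medians of 8206.5 UMIs in basal-like and 17272 UMIs in gland-like cells, and its part in the values was not tested.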
